A study of Homo sapiens with 4 samples.

Results

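The genes described here encode the subunits of the mitochondrial respiratory chain and of ATP synthase, together with a few transcripts that carry the same name stems. They were chosen by gene symbol alone. A gene was a member when a probe set annotated with exactly 1 symbol named SDHA, SDHB, SDHC, SDHD, CYC1 or CYCS, or a gene beginning with NDUFA, NDUFB, NDUFC, NDUFS, NDUFV, UQCR, COX4I, COX5, COX6, COX7A, COX7C, COX8, ATP5F1, ATP5M or ATP5P, with pseudogene names left out. This gave 87 of the 19775 genes on the array. Of these, 76 were subunits: 33 of complex I, 3 of complex II, 7 of complex III, cytochrome c (CYCS), 15 of complex IV and 17 of complex V. SDHB had no probe set annotated with that symbol alone, so complex II is described without it. The name stems also caught 8 complex I assembly factors (the NDUFAF genes) and 3 antisense or divergent RNAs (NDUFB2-AS1, NDUFV1-DT and NDUFV2-AS1), which are not subunits. For every gene the probe set with the highest mean over the arrays was used.

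The study examined the loss of ZEB2, a zinc-finger repressor that drives epithelial-mesenchymal transition, in MDA-MB-231, a human basal-like, triple-negative breast carcinoma line grown on plastic. It comprised 4 Affymetrix U133 Plus 2 arrays, 1 per group. The stable pair set cells with a ZEB2 short hairpin RNA (shRNA) beside cells with the pLVTH vector control. The transient pair set cells given pooled ZEB2 siRNAs (small interfering RNAs) at 20 nM next to cells that received luciferase siRNA, washed after 24 h and collected 48 h later. RNA of the stable pair was labelled from 2 µg and that of the transient pair from 100 ng, so delivery, culture and labelling cannot be told apart between the pairs. Whether the stable cells were a clone or a pool is not given in the sources used here. Since every group is 1 array, differences inside a pair come without replicates, and the number of arrays limits every value. All values are log2 RMA expression values, on which 1 unit is 2-fold.

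The targeted gene, ZEB2, read 6.12 on the vector control array, 3.52 on the ZEB2 shRNA array, 6.56 on the luciferase control array and 3.51 on the ZEB2 siRNA array. Array medians lay between 5.34 and 5.37. Of 6 markers of the line, VIM, CD44, CAV1, AXL and MSN read at least 12.1 on every array, whereas SPARC read at most 4.88. Of 5 markers expected to be low, PGR and FOXA1 stayed under the level filter of 4.77, while 3 reached it. GATA3 read up to 9.48, ERBB2 up to 7.97 and ESR1 up to 6.54. Of 5 markers of other cell types, 3 passed the filter on some array and none read above 6.98, and PTPRC and ALB, the leucocyte and liver markers, were under it on every array. Genes whose highest value reached that filter, the 40th percentile of all values, were retained, which left 15082 genes and 85 members, 74 of them subunits. The members under the filter were COX7A1 and COX8C, tissue isoforms of complex IV subunits.

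The respiratory chain passes electrons from NADH through complex I, or from succinate through complex II, to ubiquinone, then through complex III and cytochrome c to oxygen at complex IV. The proton gradient that complexes I, III and IV build drives ATP synthase, complex V. Most subunits are encoded in the nucleus and imported, and a small catalytic set is encoded in mitochondrial DNA. Around the catalytic core, which has counterparts in bacteria, mammalian complexes carry many small accessory subunits. Carcinoma cells in culture make ATP from glycolysis and from this chain in varying proportion.

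Subunit genes were on the whole slightly higher with the ZEB2 shRNA than with its vector control, and near their control with the ZEB2 siRNA. Over the 85 members kept, the median difference was 0.121 in the stable pair, where the median over all 15082 genes was -0.0242. In the transient pair the median was -0.0305 over the members and -0.0183 over all genes. In the stable pair 61 of 85 members (71.8%) lay above 0, against 46.6% of all genes, and in the transient pair 34 members (40%) did, against 46.0% of all genes. Most members are bright: among the 75 with a mean of 9 or more, 73.3% lay above 0 in the stable pair, and among the 4545 genes of the array at that level 49.9% did. At 1.5-fold, 11 members were higher in the stable pair, where 7.55% of all genes were, and 0 were lower, where 7.11% of all genes were. At 1.5-fold in the transient pair, 1 member was higher, against a background of 0.69%, and 0 were lower, against 1.51%. Within a pair no test exists, and these counts describe 2 arrays each. RNA came from whole cultures, so a change in the share of cells and a change in RNA per cell cannot be told apart.

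**Figure D1:**
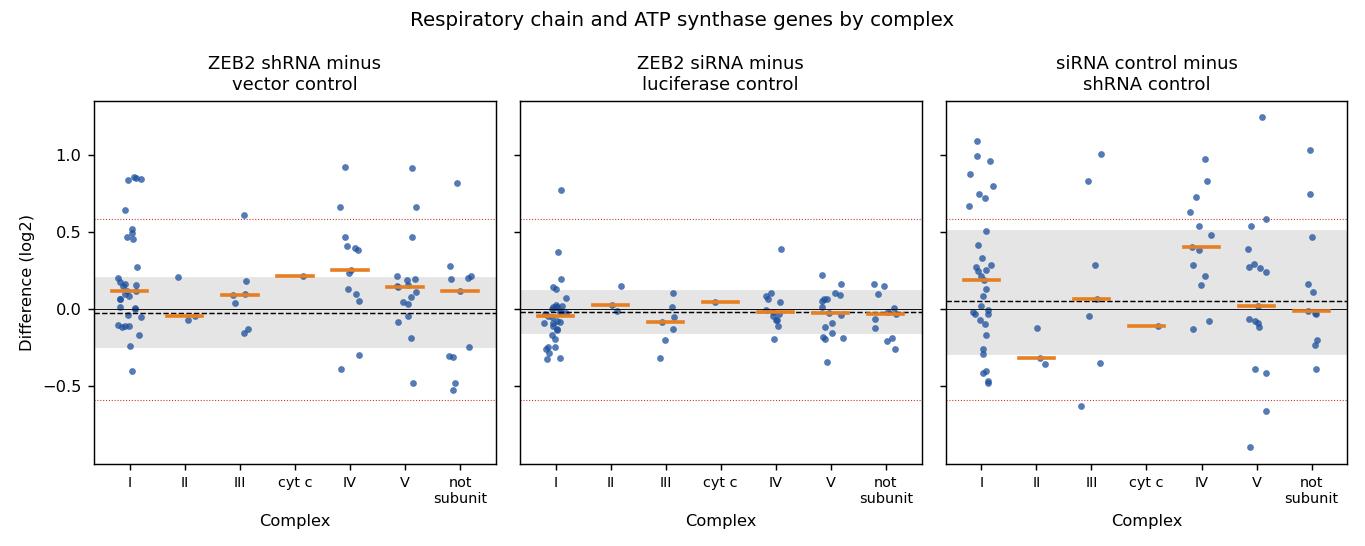
Difference in log2 expression (vertical axis) of each kept member (points), grouped by complex, in the stable pair, the transient pair and between the controls. Orange bars are group medians, the grey band the quartiles and the dashed line the median of all 15082 genes, and dotted lines 1.5-fold. In the stable pair the points of complex IV have a median of 0.254 and those of complex I reach 0.86, while in the transient pair all members but NDUFA1 stay within 1.5-fold.

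The only test that the design allows is a common knockdown effect with the method blocked, fitted to the 4 arrays with limma, which has 1 residual degree of freedom. It called 0% of the 15082 genes at a Benjamini-Hochberg adjusted p under 0.05, and no member. At an unadjusted p under 0.05 it held 384 genes, where 754 would be expected with no effect, and 0 members. The members with the smallest p were ATP5PF, a stalk subunit of ATP synthase, at a mean difference of 0.34 ± 0.14 (SE), and NDUFA1 at 0.47 ± 0.20 (SE), both with an adjusted p of 0.971 in limma. These p-values measure only the spread between the 2 knockdown methods. ZEB2 itself, lower in both pairs, was not called either, at -2.82 ± 0.18 (SE) and an adjusted p of 0.971 in limma. The lack of calls thus does not show that the members were unchanged. ATP5PF read 11.49 and 11.96 in the stable pair, control before knockdown, and 11.78 with luciferase siRNA. It was higher in both knockdowns, by 0.47 and 0.22.

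Complex I, the NADH dehydrogenase, had a median of 0.120 in the stable pair and -0.0420 in the transient pair over 33 subunits. In the stable pair 24 of them lay above 0, and 5 reached 1.5-fold: NDUFV3, NDUFS4, NDUFA2, NDUFB7 and NDUFB2. NDUFV3 is an accessory subunit of the NADH-oxidising module. It read 9.62 on the vector control array, 10.47 with the ZEB2 shRNA, 10.49 with luciferase siRNA and 10.47 with the ZEB2 siRNA. NDUFS4, an accessory subunit of the peripheral arm that is mutated in some patients with Leigh syndrome, read 9.82, 10.67, 10.81 and 10.82 in the same order. The vector control array was the low one for both genes, and the other 3 arrays lay close together.

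NDUFA2, a small peripheral-arm subunit with a thioredoxin-like fold, read 10.35 with the vector control, 11.18 with the ZEB2 shRNA, 11.44 with luciferase siRNA and 11.42 with the ZEB2 siRNA. NDUFB7 lies on the intermembrane-space side of the membrane arm and read 9.18, 10.02, 9.90 and 9.65 on the same arrays. The membrane-arm subunit NDUFB2 read 10.98, 11.62, 11.65 and 11.52. In the stable pair these are differences of 0.84, 0.84 and 0.64, and in the transient pair of -0.02, -0.24 and -0.13. Below 1.5-fold, NDUFA12 (0.52), NDUFB1 (0.49), NDUFA8 (0.47) and NDUFB3 (0.46) were the next highest in the stable pair.

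At the other end of complex I, the iron-sulfur subunit NDUFS1 read 10.05 on the vector control array and 9.65 with the ZEB2 shRNA, a difference of -0.40. NDUFA9, an accessory subunit at the junction of the arms, read 10.01 and 9.77, a difference of -0.24. Both are lower in the stable pair, whereas in the transient pair NDUFS1 differed by 0.08 and NDUFA9 by -0.14. Of the other NDUFS1 probe sets that reached the filter, 3 also lay lower in the stable pair (-0.14, -0.60 and -0.45) and 1 lay higher (0.23).

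NDUFA1, an X-linked subunit of the membrane arm needed for complex I assembly, was the single member at 1.5-fold in the transient pair. It read 11.64 with luciferase siRNA and 12.41 with the ZEB2 siRNA, 0.77 higher. The stable pair read 11.67 and 11.84, a difference of 0.18, so the ZEB2 siRNA array stood above the other 3. NDUFA5 came next in complex I at 0.37 in the transient pair, with 10.11 and 10.48, and differed by -0.11 in the stable pair. The lowest complex I subunits in the transient pair were NDUFB10, with 10.01 and 9.68, and NDUFA7, with 9.35 and 9.04. They differed by -0.32 and -0.31 there, and by 0.12 and 0.07 in the stable pair.

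**Figure D2:**
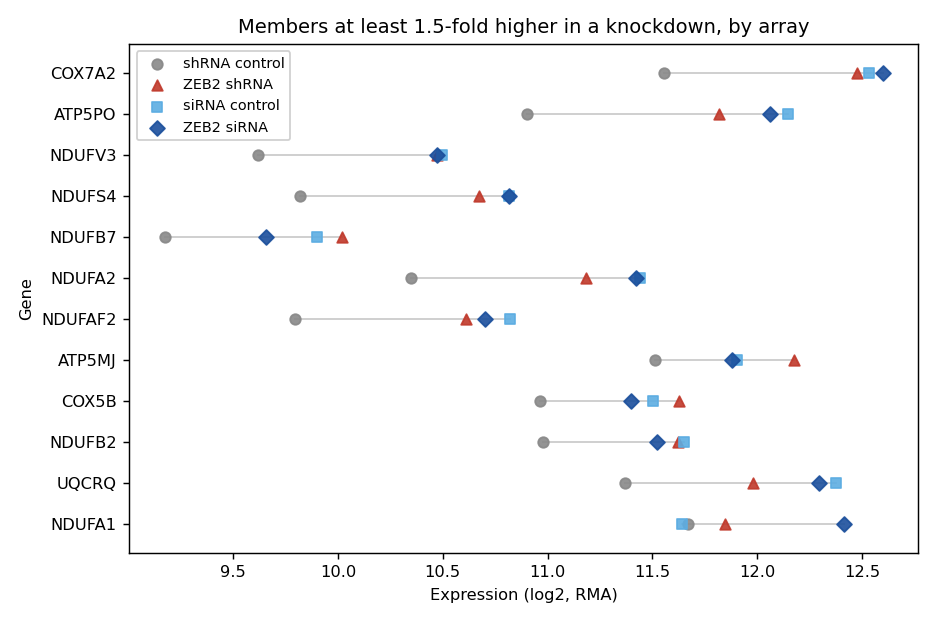
Log2 expression (horizontal axis) on each of the 4 arrays for the 12 members that were at least 1.5-fold higher in either knockdown pair. Grey circles (vector control) lie to the left of the other 3 arrays for the 11 genes above NDUFA1, and for NDUFA1 the ZEB2 siRNA array alone lies to the right.

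Complex II, succinate dehydrogenase, is also an enzyme of the citric acid cycle, and none of its 3 members came near 1.5-fold in either pair. SDHA, the flavoprotein subunit, read 10.68 and 10.64 in the stable pair and 10.56 and 10.58 in the transient pair. The membrane anchors SDHC and SDHD differed by 0.21 and -0.07 in the stable pair, and by -0.01 and 0.15 in the transient pair. The median of the 3 was -0.0420 with the shRNA and 0.0275 with the siRNA. Probe sets marked as cross-hybridising stand for SDHA and SDHC. Without them SDHA, which has no other probe set, drops out, and the shRNA median over SDHC and SDHD alone was 0.0881.

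In complex III, the cytochrome bc1 complex, 5 of 7 subunits lay above 0 in the stable pair, with a median of 0.0933, and 2 of 7 in the transient pair, with a median of -0.0825. UQCRQ, a small subunit near cytochrome b, was the only one at 1.5-fold. It read 11.37 on the vector control array, 11.98 with the ZEB2 shRNA, 12.38 with luciferase siRNA and 12.29 with the ZEB2 siRNA. Here too the vector control was the lowest array. The core proteins UQCRC1 and UQCRC2 were lower in both pairs, UQCRC1 at -0.13 and -0.32 and UQCRC2 at -0.15 and -0.20 in the stable and the transient pair. UQCR10 differed by 0.18 and 0.02, and UQCRB by 0.09 and 0.11. Cytochrome c (CYCS), the mobile carrier that also triggers apoptosis when released, read 12.59 and 12.81 in the stable pair and 12.49 and 12.54 in the transient pair. These are differences of 0.22 and 0.05, and over the mean of its probe sets they were 0.050 and -0.165.

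Complex IV, cytochrome c oxidase, had the highest median of the 5 complexes in the stable pair, 0.254 over 13 subunits, of which 11 lay above 0. Its median in the transient pair was -0.0188. COX7A2, the broadly expressed isoform of a small membrane subunit, had the largest difference of any member in the stable pair. It read 11.55 with the vector control, 12.47 with the ZEB2 shRNA, 12.53 with luciferase siRNA and 12.60 with the ZEB2 siRNA, or 0.92 in the stable pair and 0.07 in the transient pair. COX5B, a zinc-binding subunit on the matrix side, read 10.96, 11.63, 11.50 and 11.40. Its 3 other probe sets moved the same way in the stable pair, by 0.61, 0.59 and 0.33. COX7C and COX6C followed at 0.47 and 0.40, with the ZEB2 siRNA at -0.02 and 0.09.

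Several complex IV subunits have a broadly expressed and a tissue-restricted isoform, and the broad isoforms were bright on all arrays. COX4I1 read between 12.05 and 12.34, COX6A1 between 12.29 and 13.02, COX6B1 between 11.35 and 11.58, and COX8A between 12.50 and 12.83. The restricted partners stayed near the filter level: COX4I2 between 5.04 and 5.55, COX6A2 between 4.78 and 5.19, and COX6B2 between 4.64 and 5.29. COX7A1 read at most 4.72 and COX8C at most 3.19. Levels of different probe sets are not comparable as amounts of RNA, and RMA compresses differences of dim genes. COX6B2, the testis isoform, was the only member that differed by 0.32 or more (log2) in opposite directions, at -0.39 with the shRNA and 0.39 with the siRNA, both between dim values. Over all genes 1.24% were lower with the shRNA and higher with the siRNA at that size and 2.12% the reverse, so 1 member of 85 is near the background. COX7A2L, which helps join complexes III and IV into supercomplexes, read 10.49 and 10.19 in the stable pair and 11.32 and 11.25 in the transient pair. It was 0.30 lower with the shRNA, the second-lowest difference in the complex.

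Complex V, ATP synthase, had medians of 0.142 in the stable pair, with 13 of 17 subunits above 0, and -0.0211 in the transient pair. ATP5PO, the OSCP subunit that ties the catalytic head to the peripheral stalk, read 10.90 with the vector control, 11.82 with the ZEB2 shRNA, 12.15 with luciferase siRNA and 12.06 with the ZEB2 siRNA. The small membrane subunit ATP5MJ read 11.51, 12.18, 11.90 and 11.88. Both were thus lowest on the vector control array, and ATP5MJ was highest with the ZEB2 shRNA. The catalytic subunits ATP5F1A and ATP5F1B differed by 0.05 and 0.03 in the stable pair and by 0.06 and -0.18 in the transient pair.

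The c-ring of ATP synthase is built from 1 mature protein that 3 genes encode, and these did not shift together. ATP5MC1 differed by -0.19 and -0.12 in the stable and transient pairs, ATP5MC2 by 0.19 and -0.34, and ATP5MC3 by 0.20 and 0.06. ATP5MC2, with 10.82 and 10.48, was the lowest member of all in the transient pair. ATP5MF, whose single probe set was dim (5.71 and 5.23 in the stable pair, 5.05 and 5.21 in the transient pair), was the lowest subunit in the stable pair at -0.48. ATP5F1D, the delta subunit of the central stalk, differed by 0.15 and -0.19.

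Among the transcripts that are not subunits, the 8 NDUFAF assembly factors had a median of -0.271 in the stable pair and -0.0764 in the transient pair, below the complex I subunits they help to assemble. NDUFAF4 read 10.25 and 9.73 in the stable pair and 10.22 and 10.31 in the transient pair, and at -0.52 it was the lowest member with the shRNA. NDUFAF8 read 10.58 and 10.10, then 10.19 and 10.35. For both the ZEB2 shRNA array was the lowest of the 4. NDUFAF2, a late assembly chaperone, went the other way: it read 9.79 with the vector control, 10.61 with the ZEB2 shRNA, 10.82 with luciferase siRNA and 10.70 with the ZEB2 siRNA. The antisense and divergent RNAs were dim, and their differences in the stable pair were between 0.121 and 0.216.

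The 11 members at 1.5-fold in the stable pair thus share 1 feature that the rule did not use: for each of them the vector control was the lowest of the 4 arrays. Choosing genes by the difference of that pair favours this, and the same held for 88.1% of the 1138 genes of the array that were 1.5-fold higher in that pair. Over all 85 members the vector control array was the lowest for 42 (49.4%), against 30.9% of all genes. When the luciferase siRNA control was put in place of the vector control, an alternative chosen after seeing the data, the ZEB2 shRNA array differed from it by between -0.399 (UQCRQ) and 0.276 (ATP5MJ) for these 11, and none reached 1.5-fold. Choosing the 11 by their difference from the vector control favours smaller or reversed differences once that array is replaced. The same was not computed for the 1138 genes. The replacement also crosses delivery, culture and labelling amount, which cannot be told apart. The median over the 85 members with this replacement was 0.0105. At 1.5-fold, 2 members were higher (ATP5MC1 and NDUFV1, against a background of 9.2% of all genes) and 3 were lower (COX7A2L, NDUFB11 and UQCR11, against 19.6%). These 5 were named after their values were seen.

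The last comparison is between the controls, both of which keep ZEB2. It shares an array with each pair, so its values stand beside theirs without being set against them. The median of luciferase siRNA control minus vector control was 0.157 over the members and 0.0558 over all genes. At 1.5-fold 18 members were higher, against a background of 21.9%, and 3 were lower, against 12.1%. At 2-fold 4 were higher (ATP5PO 1.24, NDUFA2 1.09, NDUFAF2 1.03 and UQCRQ 1.01), against 10.8%, and 0 were lower, against 4.99%. These shares do not exceed the background at either threshold.

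By complex, the controls' medians were 0.405 for complex IV, 0.186 for complex I, 0.0650 for complex III, 0.0242 for complex V and -0.313 for complex II. All of the 11 members named above but COX5B and ATP5MJ were among the 18, and the others were NDUFB1 (0.96), UQCR11 (0.83), COX7A2L (0.83), NDUFB11 (0.80), NDUFA11 (0.75), NDUFV2-AS1 (0.75), COX6A1 (0.73), COX7C (0.63) and ATP5F1E (0.59). The 3 lower ones were ATP5MC1 (10.71 with the vector control and 9.82 with luciferase siRNA), ATP5MF and UQCRC1, at -0.89, -0.66 and -0.63. NDUFV1, which carries the flavin of complex I, differed by -0.47 and NDUFA5 by -0.46. The difference between 3′ and 5′ probe sets of ACTB moved with this comparison, at -0.04 and -0.03 on the shRNA arrays and 0.50 and 0.52 on the siRNA arrays. The same measure for GAPDH was -0.07 on both shRNA arrays and 0.11 and 0.19 on the siRNA arrays. The mean of the poly-A spike-ins was 8.48 and 7.80 in the stable pair and 8.65 and 8.52 in the transient pair. The part of these measures in the members' differences was not tested.

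Lower and higher thresholds were also counted. At a difference of 0.32 or more (log2) in the stable pair 20 members were higher, against 17.4% of all genes, and 5 were lower, against 19%. The transient pair had 3 members higher at that size, against 6.24%, and 2 lower, against 8.47%. Between the controls 28 were higher at that size, against 33.1%, and 12 were lower, against 23.2%. At 2-fold 0 members were higher or lower in the stable pair (background 2.39% and 2.08%) and in the transient pair (background 0.0464% and 0.126%). No member was higher by 0.32 in both pairs or lower by 0.32 in both, and over all genes the shares were 1.03% and 2.35%, so 0 of 85 members is near the background. By sign alone, 23 members were above 0 in both pairs, 13 below 0 in both, 38 above in the shRNA and below in the transient pair, and 11 the reverse. As shares these are 27.1%, 15.3%, 44.7% and 12.9%, and over all genes 20.6%, 27.8%, 25.9% and 25.2%.

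**Figure D3:**
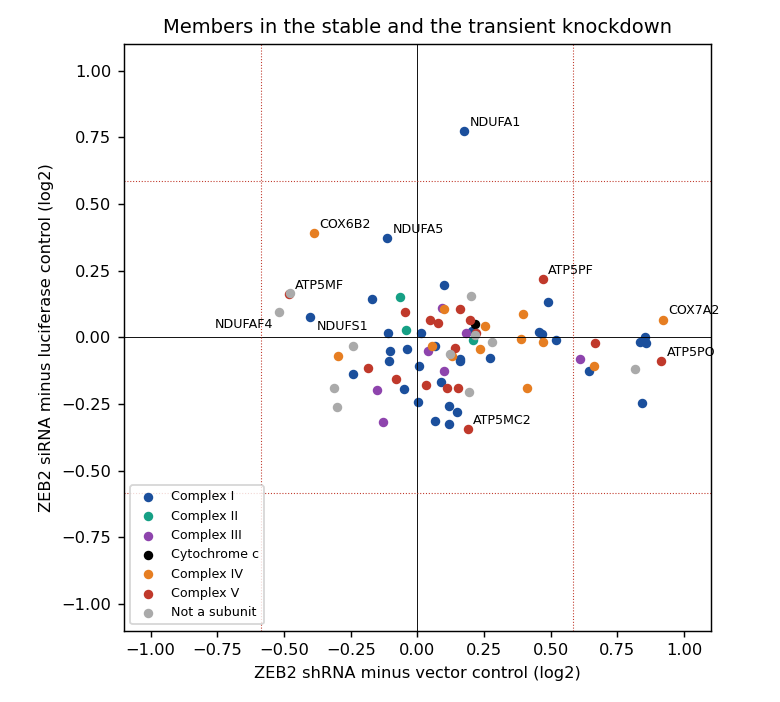
Difference of each of the 85 kept members in the stable pair (horizontal axis, log2) and in the transient pair (vertical axis, log2), coloured by complex, with dotted lines at 1.5-fold. The pairs share no array. The points spread along the horizontal axis up to 0.92 (COX7A2) and lie within 0.4 of 0 on the vertical axis apart from NDUFA1 at 0.77.

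Subunits outside the core had a higher median than core subunits in the stable pair, a grouping made after the values were seen and not tested. The 18 subunits counted as core (subunits with bacterial counterparts, such as NDUFS1, NDUFV1, SDHA, CYC1 and ATP5F1A) had a median of 0.0354, and the other 56 subunits had a median of 0.159. The mobile carrier CYCS and the core proteins UQCRC1 and UQCRC2 of complex III were counted with the other 56. At 1.5-fold, 9 of these 56 and 1 of the 18 core subunits (ATP5PO) were higher. As 56 of the 74 kept subunits lie outside the core, most of the 10 would fall there by number alone. Within complex I the 5 core subunits had a median of 0.00252 and the 28 accessory ones of 0.153. In complex V this did not hold, with 0.142 over 9 core and 0.135 over 8 accessory subunits. In the transient pair core and other subunits had medians of -0.0448 and -0.0211. Between the controls they were -0.0930 and 0.270.

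Some of the members at 1.5-fold in the stable pair lie on the same chromosome, from RefSeq gene order. Of the 11, 4 lie on chromosome 5 (NDUFS4, NDUFAF2, NDUFA2 and UQCRQ) and 2 on chromosome 21 (ATP5PO and NDUFV3). The median difference over all 665 kept genes of chromosome 5 was 0.157 in the stable pair, and over the 160 of chromosome 21 it was 0.181, against -0.0242 over all genes. Chromosome 14 had a higher median, 0.190 over 478 genes, and chromosome 7 had 0.131 over 708, and each held 1 of the 11. How many of all genes at 1.5-fold lie on each chromosome was not counted. Chromosome 5 held 7 members in all, with a median of 0.608. SDHA and NDUFS6 there differed by -0.04 and -0.10. The 3 members of chromosome 21 were 0.47 (ATP5PF) or more higher. In the transient pair the medians of all genes on chromosomes 5 and 21 were -0.0161 and -0.0241. Between the controls they were 0.187 and 0.220, against 0.0558 over all genes.

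For each member the 20 nearest kept genes on either side were taken, and the median of their differences was computed. Over the 11 members these neighbour medians had a median of 0.144 in the stable pair, and all 11 lay above the median of all genes. Over the other 74 members the median was -0.0492, and 27 of 74 lay above the median of all genes. NDUFB2 had the highest neighbour median of the 11, 0.394, and NDUFS4 the lowest, -0.00838. In the transient pair the corresponding medians were -0.0339 and -0.0311, and between the controls they were 0.193 and 0.0240. The neighbours of other genes at 1.5-fold in the stable pair were not examined, so the pattern cannot be called particular to these members. The part of chromosomal position in the members' differences was not tested.

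**Figure D4:**
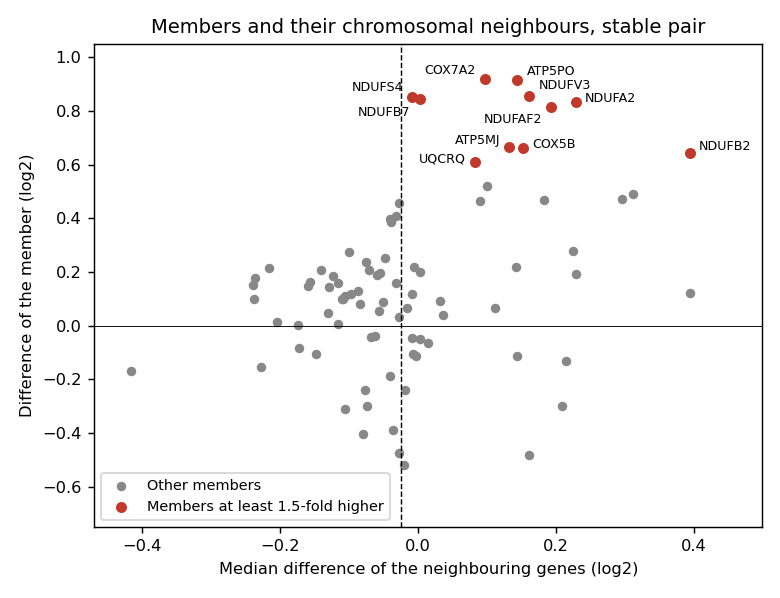
Difference of each member in the stable pair (vertical axis, log2) against the median difference of up to 20 kept genes on either side of it on its chromosome (horizontal axis, log2). Red points are the 11 members at 1.5-fold, which lie to the right of the dashed line at the median of all genes, -0.0242, and grey points are the other 74.

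Promoters of respiratory chain genes are known targets of NRF1, of ETS factors such as GABP, and of YY1. RefSeq promoters (GRCh38.p14, 250 bases before to 50 after the start) were held for 73 members, 91 promoters in all. The NRF1 core GCGCATGC was found, on either strand, in 18.7% of these, against 3.05% of all 35116 promoters in the table and 4.17% of those of kept genes. CCGGAAG, the ETS motif, was found in 25.3%, 10.3% and 14.9%, and the YY1 motif AAGATGGC in 15.4%, 2.89% and 4.18%. The CREB site TGACGTCA was in 4.40% of member promoters, 1.85% of all and 2.58% of those of kept genes. For the ERRA motif TCAAGGTCA these shares were 1.1%, 0.353% and 0.238%. At least 1 of the NRF1, ETS and YY1 motifs was in 46.2% of member promoters, against 14.9% of all and 21.1% of those of kept genes. Of the 12 promoters of the 11 members at 1.5-fold in the stable pair, 5 (41.7%) held at least 1, against 46.8% of the other members' promoters. By motif, NRF1 was in 8.33% against 20.3%, ETS in 25% against 25.3% and YY1 in 16.7% against 15.2%, and no difference between these groups was tested. A match describes the sequence and is not a measured binding site.

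The 150 bases before the start are shown for the members at 1.5-fold in a knockdown pair whose motif lies wholly in them, so that the motifs can be read beside the values above. Motifs are in capitals. COX5B holds an NRF1 core on the reverse strand and an ETS motif, UQCRQ and NDUFB7 an ETS motif, NDUFB2 a CREB site, and NDUFA1 an ETS motif on the reverse strand. They come from chr2:97645912-97646061 (plus strand), chr5:132866492-132866641 (plus), chr19:14572067-14572216 (minus), chr7:140696558-140696707 (plus) and chrX:119871682-119871831 (plus), in the order COX5B, UQCRQ, NDUFB7, NDUFB2 and NDUFA1.
COX5B: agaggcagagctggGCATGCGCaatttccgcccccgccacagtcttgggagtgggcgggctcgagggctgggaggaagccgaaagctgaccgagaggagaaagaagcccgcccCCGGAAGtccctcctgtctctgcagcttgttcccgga
UQCRQ: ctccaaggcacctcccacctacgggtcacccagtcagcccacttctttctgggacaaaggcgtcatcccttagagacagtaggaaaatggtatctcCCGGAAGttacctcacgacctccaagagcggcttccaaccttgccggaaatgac
NDUFB7: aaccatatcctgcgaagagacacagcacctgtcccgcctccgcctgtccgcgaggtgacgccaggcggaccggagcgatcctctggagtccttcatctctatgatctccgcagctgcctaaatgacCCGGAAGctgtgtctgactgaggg
NDUFB2: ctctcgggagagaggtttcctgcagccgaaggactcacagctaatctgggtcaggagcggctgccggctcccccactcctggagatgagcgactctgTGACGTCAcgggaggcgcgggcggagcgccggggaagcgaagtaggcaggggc
NDUFA1: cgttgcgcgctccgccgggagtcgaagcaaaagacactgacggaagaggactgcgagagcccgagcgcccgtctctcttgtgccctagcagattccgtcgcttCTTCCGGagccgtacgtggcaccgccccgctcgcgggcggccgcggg

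The probe sets of a gene did not always move together. The members had 169 probe sets, 38 members had only 1, and 67 further probe sets of 39 genes reached the filter. Of those 67, 45 had the sign of the gene's brightest probe set in the stable pair and 35 in the transient pair. Both other probe sets of ATP5PO were higher in the stable pair (0.34 and 0.27), as was that of ATP5MJ (0.85), while those of NDUFA2 differed by -0.24 and 0.08 and that of NDUFV3 by 0.01. COX7A2, UQCRQ, NDUFAF2 and NDUFA1 rest on a single probe set. When the probe sets of a gene were averaged, 4 members were 1.5-fold higher in the stable pair and 1 was lower. RefSeq lists 235 pseudogenes named after 49 of the members, and their RNA could add to a probe set's signal.

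Mitochondrial genes outside the rule were described in lists of their own. Of 13 subunits encoded in mitochondrial DNA, 7 had a probe set with a single symbol. Their median difference was -0.0520 in the stable pair, with 6 of 7 below 0, and 0.117 in the transient pair, with 7 of 7 above 0. COX3, a core subunit of complex IV, read 9.14 and 8.80 in the stable pair and 8.94 and 9.94 in the transient pair, from a probe set marked as cross-hybridising. COX1, the catalytic subunit, read 13.79 and 13.57, then 14.12 and 14.31. ND2, ND4, COX1, COX2 and ATP6 read at least 13.48 on every array, near the top of the array's range. COX3 and ND6 do not lie there, at no more than 9.94 and 8.12.

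The other assembly factors, 53 kept of 54 listed, had medians of 0.0301 in the stable pair and -0.0386 in the transient pair. At 1.5-fold in the stable pair 5 of the 53 were higher, against 7.55% of all genes, and 2 were lower, against 7.11%. The count of higher factors is near the background. They were COA7 (0.82) and COA8 (0.82) for complex IV, ATPAF2 (0.64) and FMC1 (0.59) for complex V, and UQCC5 (0.61) for complex III. TMEM70, an assembly factor of ATP synthase, read 10.56 and 9.54 in the stable pair and 10.69 and 10.76 in the transient pair. BCS1L, which inserts the iron-sulfur protein of complex III, differed by -0.63 and 0.07. In the transient pair 0 of the 53 reached 1.5-fold, where 0.69% of all genes were higher and 1.51% lower. Averaged over their probe sets, COA8 (0.35), ATPAF2 (0.42) and UQCC5 (0.16) were below 1.5-fold in the stable pair.

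The 7 respiratory genes outside the name stems had medians of 0.171 in the stable pair, -0.139 in the transient pair and 0.543 between the controls, and 4 of 7 lay above 0 in the stable pair. COX7B2, a testis-enriched relative of COX7B, had the largest difference. It read 3.81 with the vector control, 7.93 with the ZEB2 shRNA, 7.25 with luciferase siRNA and 7.32 with the ZEB2 siRNA, so the vector control alone was under the filter level. DMAC2L, known as coupling factor B of ATP synthase, was likewise lowest with the vector control, at 8.23, with 9.13, 9.14 and 8.86 on the others, and its difference of 0.90 in the stable pair was 0.19 when its probe sets were averaged. ETFB, a subunit of the electron transfer flavoprotein, read 9.71 and 9.03, then 8.75 and 8.20, and was lower in both knockdowns, at -0.67 and -0.55.

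The 17 kept genes of the citric acid cycle and pyruvate dehydrogenase had medians of -0.140 and 0.00785 in the stable and transient pairs. DLST, a subunit of 2-oxoglutarate dehydrogenase, was higher in both by 0.63 and 0.62, with 8.16 and 8.79, then 8.19 and 8.81. SUCLG2, a succinyl-CoA ligase subunit, differed by 0.87 and 0.10. Import and carrier genes lay below 0 in the stable pair in 17 of 21, with a median of -0.148, where 8030 of all 15082 genes lay below 0. Between the controls 17 of the 21 also lay below 0, with a median of -0.266, where 6907 of all genes did. TOMM20, an outer-membrane import receptor, differed by -0.71 and -0.15 in the stable and transient pairs. With probe sets averaged, TOMM20 was at -0.46 in the stable pair. Among 17 regulators of mitochondrial biogenesis the medians were -0.0705 and -0.125. TFB1M, a mitochondrial rRNA methyltransferase, read 8.45 and 7.72, then 8.41 and 7.72, from a probe set marked as cross-hybridising. PPARGC1B, a coactivator, differed by 0.25 and -0.66 and MYC by 0.64 and -0.26. Averaging probe sets left TFB1M at -0.45 and -0.29 and PPARGC1B at -0.18 in the transient pair, all below 1.5-fold.

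**Figure D5:**
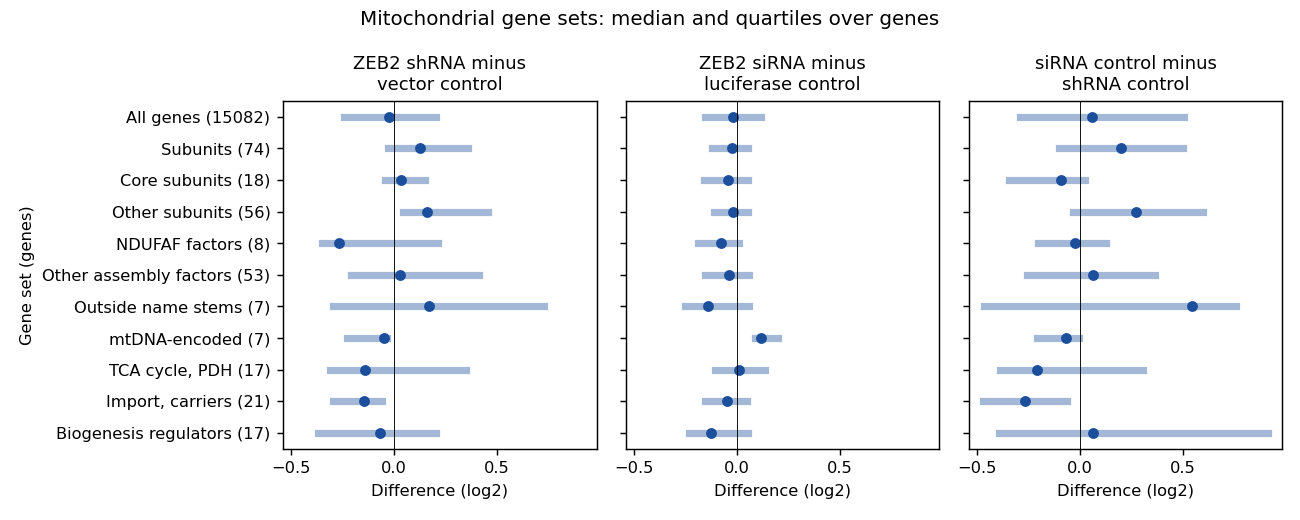
Median (points) and quartiles (bars) over genes of the difference in log2 expression (horizontal axis) for the subunits and other mitochondrial gene sets, with the number of kept genes in brackets. In the stable pair the 56 subunits outside the core stand at 0.159 and the import and carrier genes at -0.148, and in the transient pair the medians lie between -0.139 (respiratory genes outside the name stems) and 0.117 (mitochondrial DNA-encoded subunits).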

How the data were processed

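Total RNA of 4 MDA-MB-231 cultures was hybridised to 1 array each. The authors deposited log2 values of expression for each probe set. They come from RMA (affy), per the submitters' processing notes, with no version given in the sources used here. RMA puts the arrays on a common distribution, so a change in total RNA per cell would not show. Of 54675 probe sets, 41097 carried 1 symbol, 1801 several and 11777 none in the platform annotation. Among those with several symbols, 15 included a fitting one and were left out. All 87 members matched RefSeq (GRCh38.p14, used for names, order and promoters). 

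Differences were taken within each pair and between the controls. The single test was limma 3.58.1 in R 4.3.3 (lmFit, eBayes with an intensity trend, method block, two-sided, Benjamini-Hochberg over all kept genes). Its code was run on simulated data with independent noise and an equal change in both methods. That run does not measure the power of the test on these arrays. Figures used matplotlib 3.10.9 in Python 3.11.15. The members, gene lists and rules were chosen with earlier results of these data known. Named members were those at 1.5-fold in any comparison, the 2 highest and 2 lowest of each complex per knockdown pair, the 5 highest and 5 lowest between the controls, members differing by 0.32 (log2) or more in both pairs, and isoform partners. From other lists, genes at 1.5-fold in either pair were named, otherwise the 2 with the largest mean difference. Names outside these rules (NDUFA12, NDUFA8, NDUFB3, COX6C, NDUFAF4, NDUFAF8, ATP5F1A, ATP5F1B, NDUFS6, COX1, COX2, ND2, ND4, ND6, ATP6 and the markers) were added after their values were seen. Alternatives changed the probe set per gene, the scaling, the filter, the fold and the terms of the fit. One further labelling control is not reported here.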

Additional observations from a re-analysis of the deposited data

Results flagged for a closer look

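The pairs moved to opposite sides of 0 in several medians, and none of these differences between the pairs was tested. The stable pair minus the transient pair was 0.152 for the median of all kept members, with 0.121 and -0.0305 in the pairs. The same difference of medians was 0.162 for complex I, 0.176 for complex III, 0.272 for complex IV and 0.163 for complex V, each above 0 in the stable pair and below it in the transient pair. For complex II it was -0.0695, with the signs the other way, over 3 genes. The median over all genes was -0.0242 in the stable pair and -0.0183 in the transient pair. In the transient pair the members (-0.0305), complex IV (-0.0188) and complex V (-0.0211) thus lay near that background. Complex V was 0.0173 there without _x_at probe sets.

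COX6B2, a dim testis isoform, differed by -0.39 with the shRNA and 0.39 with the siRNA, a gap of -0.778 between the pairs that was not tested either.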

How the results depend on the processing

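By replicate number, no paired analysis was possible because each group has 1 array, and the block of the limma fit is the knockdown method. Without that block limma called 0 genes and held 40 at an unadjusted p under 0.05. Of the 268 summary values under the alternatives, 239 kept their value within 0.1 (log2) or their count within 1.5 times. With limma 0 genes were called under all 12 settings. The cause of the shifts below was not tested.

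With probe sets of a gene averaged, members at 1.5-fold in the stable pair were 4 higher and 1 lower, CYCS was 0.050, -0.165 and -0.337 (stable pair, transient pair, controls), and the controls' medians were -0.146 for complex II and 0.286 for complex III. Without _x_at probe sets, complex II (SDHC and SDHD alone) was 0.0881 in the stable pair and complex V 0.0173 in the transient pair. Cyclic loess put complex V at -0.0115 between the controls, and a 60th percentile filter put complexes IV and V there at 0.509 and 0.133. At a difference of 0.32 (log2) 20, 3 and 28 members were higher and 5, 2 and 12 lower, and at 2-fold 0, 0 and 4 higher and 0 lower, in the stable pair, the transient pair and between the controls.

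With the luciferase siRNA control in place of the vector control, chosen after seeing the data, the members' median in the stable pair was 0.0105, with 2 higher and 3 lower. Complexes I, II and IV were then -0.00786, 0.247 and -0.155, and CYCS was 0.323. Reversed were ATP5PO (-0.33), BCS1L (0.70), COA8 (-0.53), COX7A2 (-0.058), DMAC2L (-0.00733), ETFB (0.28), NDUFA2 (-0.25), NDUFAF2 (-0.21), NDUFB2 (-0.029), NDUFS4 (-0.14), NDUFV3 (-0.020), TOMM20 (0.14), UQCC5 (-0.80) and UQCRQ (-0.40). Naming genes by their difference from the vector control favours such reversals, and the replacement also crosses delivery, culture and labelling amount. No other setting reversed a named gene called at 1.5-fold.

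Signal limits COX6B2, ATP5MF, COX4I2, COX6A2 and the antisense RNAs, whose values lie near the filter level.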
